A study of Mus musculus with 4 samples.

Results

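Among endothelial cells sorted from mouse aorta, 148 of 1973 kept cells (7.5%) carried UMIs of at least 3 of 6 genes: Col8a1, Selp, Dkk2, Tubb3, Timp1 and Col18a1. A UMI is a molecular tag that marks 1 captured RNA molecule. The cells, called Col8a1/Selp cells here, also had UMIs of fewer than 2 of the lymphatic genes Ccl21a, Mmrn1, Lyve1 and Reln and no UMI of Ptprc, the leukocyte marker CD45. Kept cells had at least 500 UMIs and at most 15% mitochondrial UMIs. The EC-Oct4Δ/Δ aorta (Oct4 knockout in endothelial cells, KO) held 132 of these cells among 1569 and the EC-Oct4+/+ aorta (wild type, WT) held 16 among 404. The series has 3401 cells in all, of which 3256 were kept, in 1 aortic and 1 left lung lobe library for each genotype.

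All mice were female, of strain C57/B6J, Apoe-deficient per the series title, and had eaten a Western diet for 5 weeks; their age is not given in the labels. The cells of 3 KO and of 2 WT mice were captured as 1 group each, so animals cannot be separated, and a genotype and its library cannot be told apart. Both genotypes carried the eYFP lineage label of endothelial cells, and eYFP-positive cells were sorted with a gate set on littermates without the Cdh5 driver. Digestion took place with 1 µg/mL actinomycin D, a blocker of transcription. Sorted cells came from the whole aorta, arch to abdomen. With 1 library in each group the comparisons lack replicates and carry no test; intervals are 95% intervals and cover counting error only. Few WT cells met the rule, and all their values rest on 79155 UMIs, against 803517 UMIs in KO.

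The endothelium of large arteries is a single cell layer that sets vessel tone, resists clotting and controls leukocyte entry. Where it is disturbed by injury, lipid or altered flow, endothelial cells can change their adhesion molecules, lay down new matrix and produce proteases with their inhibitors. Col8a1 encodes a chain of type VIII collagen, a short-chain collagen of the subendothelial matrix, and Col18a1 the basement membrane collagen whose fragment is endostatin. Selp is P-selectin, which is stored in Weibel-Palade bodies and slows passing leukocytes. Timp1 is a secreted inhibitor of matrix metalloproteinases, Dkk2 a secreted antagonist of the Wnt co-receptor LRP6, and Tubb3 a beta-tubulin best known from neurons.

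The 6 genes lie on different chromosomes (mm10, GENCODE M21, whole genes). Col8a1 spans chr16:57624258-57754737 on the minus strand, Selp chr1:164115264-164150026 on the plus strand and Dkk2 chr3:132085292-132180304 on the plus strand. Tubb3 spans chr8:123411424-123422015 on the plus strand, Timp1 chrX:20870166-20874735 on the plus strand and Col18a1 chr10:77052178-77166548 on the minus strand. Timp1 overlaps Syn1 and Col18a1 overlaps Slc19a1, each on the other strand, Selp overlaps the unnamed Gm16587 and Gm16548 there, and Tubb3 overlaps Gm20388 on its own strand. The sources used here do not say whether counting used strand. None of the 6 shared a 50-base stretch of its 3' end with another gene (0%).

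All 6 genes had an upstream window in the RefSeq table for GRCm38.p6. The 250 bases before the start are shown for the 4 genes whose window holds no exon, because these genes were detected in the same cells. The windows are chr16:57754738-57754987 on the minus strand (Col8a1), chr1:164115014-164115263 on the plus strand (Selp), chr3:132085042-132085291 on the plus strand (Dkk2) and chrX:20869916-20870165 on the plus strand (Timp1). Sequences run 5' to 3' towards the gene, and capitals mark matches on either strand to the Sp1 motif GGGCGG, the AP-1 motif TGANTCA, the ETS motif GGAAGT or the TATA box TATAAA.
Col8a1: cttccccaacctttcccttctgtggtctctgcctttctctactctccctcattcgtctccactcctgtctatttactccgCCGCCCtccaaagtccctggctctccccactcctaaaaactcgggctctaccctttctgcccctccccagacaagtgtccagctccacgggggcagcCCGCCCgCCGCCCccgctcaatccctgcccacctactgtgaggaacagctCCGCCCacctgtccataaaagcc
Selp: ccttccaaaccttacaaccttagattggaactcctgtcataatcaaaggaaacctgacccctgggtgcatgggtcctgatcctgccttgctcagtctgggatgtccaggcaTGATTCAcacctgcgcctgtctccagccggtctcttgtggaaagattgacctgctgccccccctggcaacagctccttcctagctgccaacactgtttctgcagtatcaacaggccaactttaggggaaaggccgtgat
Dkk2: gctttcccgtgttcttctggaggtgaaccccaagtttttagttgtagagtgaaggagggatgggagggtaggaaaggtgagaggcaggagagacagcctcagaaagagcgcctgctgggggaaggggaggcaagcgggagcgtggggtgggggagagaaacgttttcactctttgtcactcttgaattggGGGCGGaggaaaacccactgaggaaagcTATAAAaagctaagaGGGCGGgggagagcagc
Timp1: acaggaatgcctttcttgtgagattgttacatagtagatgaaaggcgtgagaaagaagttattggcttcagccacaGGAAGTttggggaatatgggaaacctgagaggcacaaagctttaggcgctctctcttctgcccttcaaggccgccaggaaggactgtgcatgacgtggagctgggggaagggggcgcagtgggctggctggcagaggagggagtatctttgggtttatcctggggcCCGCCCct
The windows share no motif that all of them hold. Col8a1 had 4 Sp1 matches and no other match. Selp had 1 AP-1 match, at -139 from the start, and no TATA box. Dkk2 had a TATA box at -32 and 2 Sp1 matches, and Timp1 had an ETS match at -174 and 1 Sp1 match. Across 32851 mouse windows of the same length, 32.7% held the Sp1 motif, 19.7% the ETS motif, 12.4% the TATA box and 6.75% the AP-1 motif.

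The targeted gene Pou5f1 (Oct4) was close to undetected whatever the genotype, so its level does not check the labels. The KO aorta had 1 Pou5f1 UMI, which lay in a Col8a1/Selp cell. The WT aorta had 0 UMIs among 989757, which allows up to 3.03 CPM (UMIs of a gene per 1000000 UMIs). Total deposited UMIs were 4483756 in the KO aorta and 1034161 in the WT aorta. The aortic libraries shared 2 cell barcodes, and no Col8a1/Selp cell had a shared barcode. Scrublet called 3 of 1569 KO cells and 3 of 404 WT cells doublets, among them 0 KO and 1 WT Col8a1/Selp cell.

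The Col8a1/Selp cells were endothelial by their defining markers. Pecam1, the junctional molecule CD31, was at 2462 CPM in KO Col8a1/Selp cells and 2712 CPM in other KO cells, and at 2666 CPM in WT Col8a1/Selp cells and 2931 CPM in other WT cells. Cdh5, the adherens junction cadherin, was at 504 and 478 CPM in the same KO groups and at 328 and 516 CPM in the same WT groups. Of 14 pan-endothelial genes, 11 were measured in KO (mean level of at least 50 CPM and worth at least 10 UMIs in the smaller group), and none was 1.5-fold higher or lower in Col8a1/Selp cells. In WT, 2 of 10 measured were lower, Cdh5 and the receptor Tie1 (126 and 213 CPM), and none was higher. Kdr, the VEGF receptor that was not among the measured, was at 19.9 CPM in KO Col8a1/Selp cells and 73.0 CPM in other KO cells.

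The 6 genes chose the cells, so their levels are a description of the choice and carry no test. In KO, Selp was the most abundant, at 820 CPM in Col8a1/Selp cells and 186 CPM in other cells, and in WT it was at 404 and 171 CPM. Col8a1 was at 539 and 31.8 CPM in KO and at 316 and 35.1 CPM in WT, in the same order. Col18a1 was at 437 and 72.5 CPM in KO and at 480 and 97.7 CPM in WT. Selp is thus not particular to these cells: 24.2% of other KO cells had a Selp UMI, whereas Tubb3 was found in 1.11% of them. Tubb3 was more frequent in the 68 other KO cells of cluster 4, a cluster described below, at 14.7%. Dkk2 was at 240 and 20.7 CPM in KO and at 139 and 14.3 CPM in WT. Timp1 was at 209 and 28.8 CPM in KO and at 63.2 and 16.5 CPM in WT. Tubb3, the lowest in WT, was at 174 and 8.02 CPM in KO and at 50.5 and 3.29 CPM in WT, where it rests on 4 UMIs of the Col8a1/Selp cells.

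**Figure D1:**
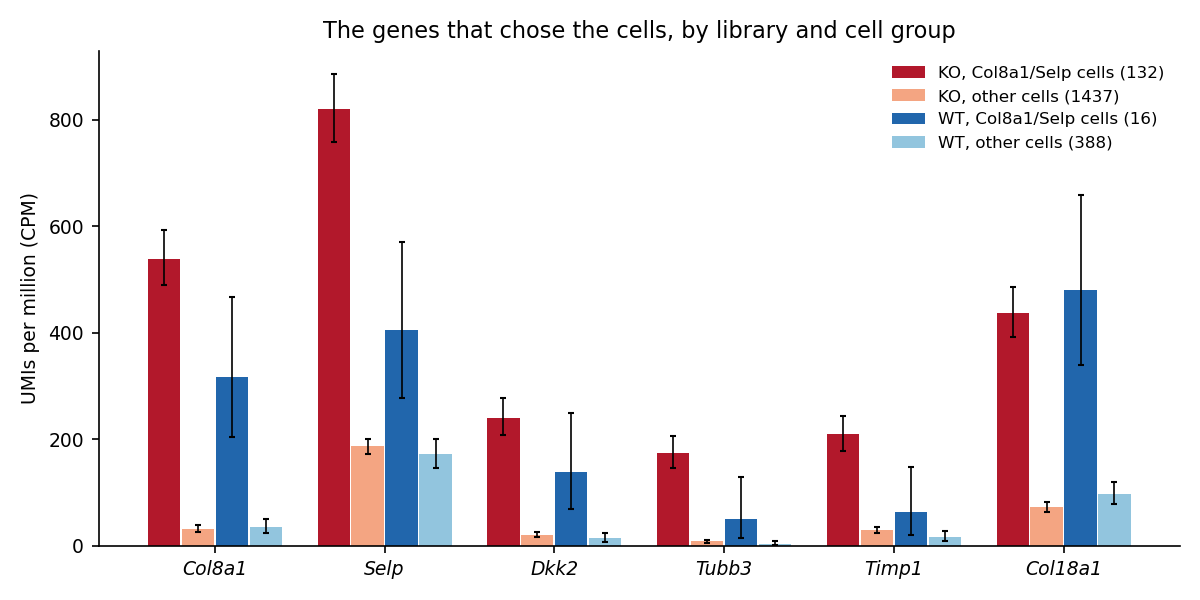
Levels of the 6 genes of the rule in CPM (y axis) for KO Col8a1/Selp cells, other KO cells, WT Col8a1/Selp cells and other WT cells; bars are the sums over cells and whiskers exact Poisson 95% intervals. Col8a1, Selp and Tubb3 stand at 539, 820 and 174 CPM in KO Col8a1/Selp cells, against 316, 404 and 50.5 CPM in WT ones, while Col18a1 stands at 437 and 480 CPM.

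Within the Col8a1/Selp cells the 6 genes were carried unevenly. The 6 genes together gave a median of 11 UMIs per KO cell (lowest 3, highest 69) and of 6 UMIs per WT cell (lowest 3, highest 19). Among KO cells, Selp was detected in 92.4%, Col18a1 in 82.6%, Col8a1 in 72.7%, Timp1 in 51.5%, Dkk2 in 48.5% and Tubb3 in 40.2%. In WT all 16 cells had Col18a1, 93.8% had Selp and 81.2% had Col8a1, while Dkk2 and Timp1 were each in 31.2% and Tubb3 in 18.8%. The commonest set in KO was Col8a1 with Selp and Col18a1, in 19 cells (14.4%), and 5 KO cells had all 6. No single KO cell held more than 9.41% of the Selp UMIs or 6.70% of the Col8a1 UMIs of its group, but 1 held 19.6% of the Timp1 UMIs.

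Each gene was also more often found in cells already carrying at least 2 of the other 5 than in cells carrying none of them. Since the 6 genes were chosen as a set with earlier results of these cells known, these shares are a description. In KO, Tubb3 was in 20.8% of the cells with at least 2 others and in 0.266% of the cells with none (at most 0.959% by its exact interval). Col8a1 was in 42.5% against 4.59%, Col18a1 in 52.4% against 8.10%, Timp1 in 28.6% against 4.46%, Dkk2 in 26.0% against 3.48% and Selp in 74.8% against 24.2%. After thinning each cell to 1500 UMIs, the KO shares were 31.4% against 5.23% for Col8a1, 50% against 20% for Selp, 17.5% against 2.10% for Dkk2, 11.6% against 0.912% for Tubb3, 12.3% against 4.12% for Timp1 and 31.7% against 8.68% for Col18a1. In thinned WT cells the groups with at least 2 others had 6 to 13 cells, and neither Tubb3 nor Timp1 had a UMI there.

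Depth enters the rule, since a deeper cell has more chances to show 3 genes. Median depth was 5400.5 UMIs in KO Col8a1/Selp cells and 2213 in other KO cells, and 4823.5 UMIs in WT Col8a1/Selp cells and 1973 in other WT cells. Median genes per cell were 2082.5 and 1139 in KO and 1910 and 998 in WT, in the same order. Thinned to 1500 UMIs, genes per cell were 863 in KO Col8a1/Selp cells and 855 in other KO cells, and 850 and 843 in WT. Thinning left out 3 KO Col8a1/Selp cells, 388 other KO cells, 1 WT Col8a1/Selp cell and 149 other WT cells. A Col8a1 UMI was found in 43.4% of thinned KO Col8a1/Selp cells and 4.48% of other thinned KO cells, and in 40% and 4.60% in WT. For Selp the thinned shares were 54.3% and 18.5% in KO, for Tubb3 18.6% and 0.763%, and in WT neither Tubb3 nor Timp1 had a UMI in the 15 thinned Col8a1/Selp cells. Genes that the rule did not use kept their distance at equal depth in KO: Sox4 was in 27.9% of thinned Col8a1/Selp cells and 6.77% of other thinned cells, Fbln5 in 61.2% and 33.0%, and Gpihbp1 in none and 10.8%. Median mitochondrial shares were 3.78% and 3.98% in KO and 2.92% and 4.41% in WT.

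Col8a1/Selp cells made up 8.41% of kept KO aortic cells (exact Clopper-Pearson interval 7.09 to 9.90%) and 3.96% of kept WT aortic cells (2.28 to 6.35%). The KO share was 2.12 times the WT share (exact conditional interval 1.26 to 3.83). With every cell thinned to 1500 UMIs before the rule was applied, 47 of 1178 KO cells (3.99%, 2.95 to 5.27%) and 3 of 254 WT cells (1.18%, 0.244 to 3.41%) met it. The share was smaller at the lower depth in each library, and the KO share lay above the WT share at both depths. At the threshold, 55 KO and 7 WT cells had exactly 3 of the 6 genes, and 136 KO and 31 WT cells that passed the exclusions had exactly 2. The exclusions took out 1 KO cell with at least 3 of the genes as lymphatic and none for Ptprc. The lymphatic chemokine Ccl21a was at 11.2 CPM in KO Col8a1/Selp cells and 2921 CPM in other KO cells, Mmrn1 at 3.73 and 258 CPM, Lyve1 at 11.2 and 277 CPM and Reln at 1.24 and 71.1 CPM, as the rule requires.

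Several genes outside the rule were higher in KO cells with 4 or more of the 6 genes than in KO cells with none. Mgp, the matrix Gla protein that restrains calcification and BMP signalling, was at 5877 CPM in KO cells with none of the 6, 11068 CPM with 2, 15257 CPM with 3, 21389 CPM with 4, 31813 CPM with 5 and 26309 CPM with all 6. Sox4, a transcription factor of the SoxC group, was at 50.9, 111, 216, 328, 527 and 1031 CPM in the same groups. The cells with all 6 are only 5, with a median of 12602 UMIs, and the cells with 2 and 3 had medians of 3255.5 and 4160 UMIs. Mmp14, a membrane-bound metalloproteinase, was at 33.3 CPM in cells with none of the genes, 27.1 CPM with 1, 29.2 CPM with 2, 61.7 CPM with 3, 152 CPM with 4, 223 CPM with 5 and 156 CPM with all 6. Pecam1 went the other way, at 2880 CPM in cells with none and 1711 CPM in cells with all 6, while Cdh5 was at 545 and 544 CPM in them. In WT, Sox4 was at 59.9 CPM in cells with none of the genes and 36.7 CPM in the 9 cells with 4, and Mgp at 5291 and 14156 CPM.

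**Figure D2:**
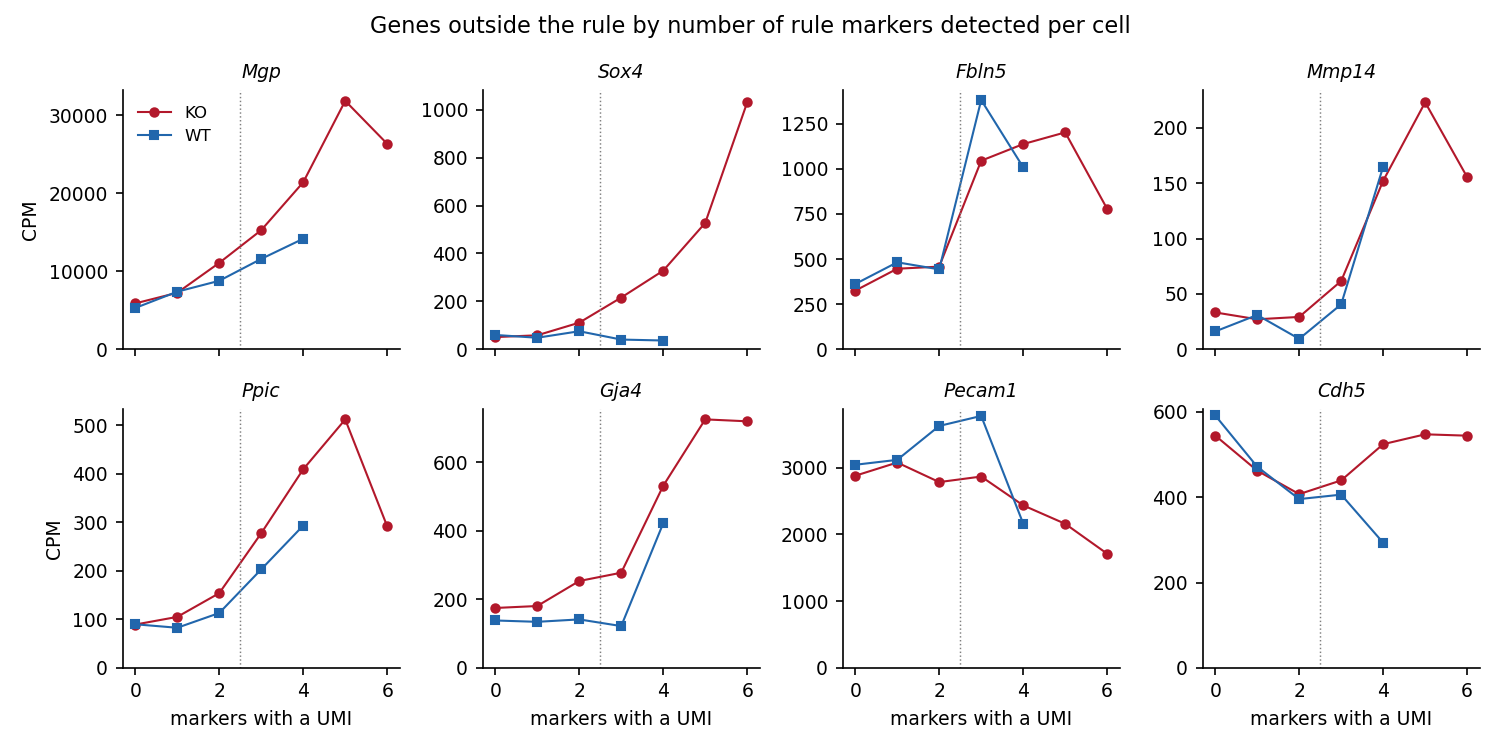
Level in CPM (y axes) of 8 genes that the rule did not use, by the number of the 6 rule genes with a UMI (x axes), for KO and WT aortic cells that passed the exclusions; the dotted line marks the threshold of 3. In KO, Mgp was at 5877 CPM without any of the 6 genes and 31813 CPM with 5, and Sox4 at 50.9 and 527 CPM; WT has no cell with 5 or 6.

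Clustering of all kept aortic cells without the rule's genes placed most KO Col8a1/Selp cells together. Cluster 4, led by the protease inhibitors Serpina3n and Serpina3g, the proteoglycan Dcn, the lipocalin Lcn2 and Sox4, held 96 of the 132 KO cells (72.7%) and 6 of the 16 WT cells (37.5%). It held 4.73% of other KO cells and 1.03% of other WT cells. Cluster 4 had 164 KO and 10 WT cells and a median of 5194.5 UMIs, so it is mostly of 1 library and among the deeper clusters. The remaining KO cells lay in cluster 9, led by Sema3g (11 cells), cluster 6, led by Fos and Fosb (9 cells), cluster 0 (7 cells), cluster 1, led by Klk10 (7 cells), and cluster 8, led by Thbs1 and Ctgf (2 cells). The 10 WT cells outside cluster 4 lay in cluster 6 (4 cells), cluster 8 (3 cells), cluster 0 (2 cells) and cluster 9 (1 cell). No Col8a1/Selp cell lay in cluster 2, led by Rgcc, Car4 and Gpihbp1, in cluster 3, led by Nts and Igfbp5, in cluster 7, led by Plac8, or in the small macrophage, smooth muscle, fibroblast and red cell gene clusters 10 to 13.

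**Figure D3:**
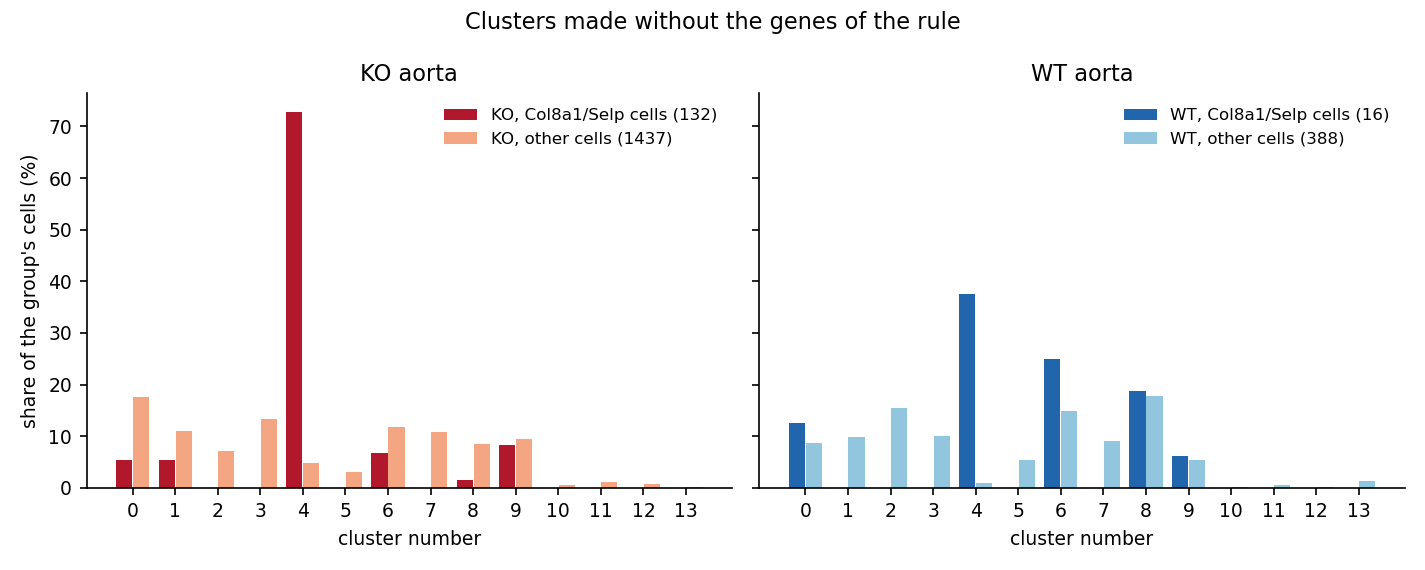
Share of each group's cells (y axis, percent) in each of 14 clusters (x axis) made without the rule's genes, for the KO aorta (left) and the WT aorta (right); dark bars are Col8a1/Selp cells and pale bars other cells. Cluster 4 holds 72.7% of KO and 37.5% of WT Col8a1/Selp cells, against 4.73% and 1.03% of other KO and other WT cells.

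The KO Col8a1/Selp cells inside and outside cluster 4 had median depths of 5926.5 and 3971.5 UMIs. The clusters were made from the expression of these same cells, and Serpina3n, Lcn2, Dcn and Sox4 lead cluster 4, so levels inside and outside it are a description. Serpina3n was at 295 CPM in the 96 cells inside and had no UMI in the 36 cells outside, and Lcn2 was at 855 and 6.25 CPM. Lgals1, the secreted lectin galectin-1, was at 1220 CPM inside and 263 CPM outside, and Mmp14 at 168 and 31.3 CPM. Cytl1, a cytokine-like secreted protein of arterial endothelium, was at 5527 CPM inside and 15400 CPM outside, and the protease Klk10 at 15.5 and 438 CPM. The matrix protein Fbln5 (1131 and 975 CPM), Vcam1 (3103 and 2919 CPM) and the endoplasmic reticulum protein Ckap4 (117 and 119 CPM) were at like levels inside and outside. The 68 other KO cells of cluster 4 had Dcn at 4019 CPM and Selp at 704 CPM but Dkk2 at 14.2 CPM and Col8a1 at 74.3 CPM. Their Tubb3 was at 81.4 CPM, Timp1 at 131 CPM and Col18a1 at 103 CPM, and 34 of them carried exactly 2 of the 6 genes. Serpina3n was at 251 CPM, Sox4 at 226 CPM and Lcn2 at 1302 CPM in those 68 cells, against 236, 386 and 686 CPM in all 132 KO Col8a1/Selp cells.

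In KO Col8a1/Selp cells, 67 of 2800 measured genes (2.39%) had 2-fold or more the level of other kept cells, and 106 (3.79%) were 2-fold or more lower. In WT the figures were 87 of 1124 genes (7.74%) higher and 44 (3.91%) lower. The rule's own genes are not counted. These cells were chosen by expression, so the counts describe size and are not tests. Of the 67 KO genes, 25 could be measured in both libraries; 17 of them were also at least 2-fold higher in WT (68% of these 25, and 20.5% of the 83 called in WT and measured in both). Of the lower genes, 14 were shared, 38.9% of 36 in KO and 31.8% of 44 in WT. The median log2 ratio over all measured genes was 0.03 in KO and 0.16 in WT.

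Sox4 and Serpina3n ranked first among the genes that were higher in KO Col8a1/Selp cells. Sox4, which overlaps Gm26735 on the other strand, had 310 UMIs and 386 CPM in them and 62.0 CPM in other KO cells, a ratio of 6.23 (5.23 to 7.43). It did not follow in WT, at 37.9 CPM (3 UMIs) in Col8a1/Selp cells and 57.1 CPM in other cells, a ratio of 0.664 (0.133 to 2.05). Serpina3n, an acute-phase serine protease inhibitor, was at 236 and 39.3 CPM in KO, a ratio of 6.02 (4.82 to 7.54), and at 12.6 and 13.2 CPM in WT, where Col8a1/Selp cells had 1 UMI. Both were carried by a minority of cells: Sox4 had a UMI in 48.5% of KO Col8a1/Selp cells and Serpina3n in 21.2%.

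A second set was higher in KO and in WT alike. S100a4, a calcium-binding protein linked to cell motility, was at 253 and 49.5 CPM in KO, a ratio of 5.10 (4.15 to 6.27), and at 556 and 67.0 CPM in WT, a ratio of 8.30 (5.50 to 12.4). It overlaps Gm42674 and shares 54.6% of its 3' 50-base stretches with other genes, so its counts are uncertain. Mgp was the most abundant, with 22283 CPM in KO Col8a1/Selp cells and 6555 CPM in other KO cells. In WT it was at 13354 and 5958 CPM. The ratios were 3.40 (3.33 to 3.47) in KO and 2.24 (2.10 to 2.39) in WT. The other cells include clusters 2 and 3, at 101 and 348 CPM in KO. By cluster, the highest other KO cells were those of cluster 9, at 13554 CPM. In WT, however, the 21 other cells of cluster 9 were at 13100 CPM and the 4 of cluster 4 at 16822 CPM. The remaining WT clusters were lower, at up to 8342 CPM. The part of cluster make-up in the Mgp ratios was not tested. Every Col8a1/Selp cell of both libraries had Mgp UMIs, with 4 to 690 UMIs per KO cell and a median of 99. Mmp14 was at 141 and 37.6 CPM in KO, a ratio of 3.74 (2.89 to 4.83), and at 126 and 25.3 CPM in WT, a ratio of 5.00 (2.12 to 10.9). The WT level rests on few Mmp14 UMIs. The 6 WT Col8a1/Selp cells of cluster 4 held 7 of them, in 33.3% of these cells, and the 10 outside it held 3. Lgals1 (ratios of 3.22 and 2.04), the cyclophilin Ppic (3.64 and 2.84), the metallothionein Mt2 (2.98 and 2.03) and the cholesterol hydroxylase Ch25h (4.86 and 7.87) also lay above 1 in KO and in WT with their intervals. Most WT UMIs of Ch25h (76.9%) came from 1 cell. Upp1, which splits uridine, had ratios of 4.33 and 5.75, and 1 cell held 83.3% of its WT UMIs.

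Other named genes were higher in KO with an open or opposite WT value. The cytosolic phospholipase Pla2g4a was at 97.1 CPM in KO Col8a1/Selp cells and 21.0 CPM in other KO cells, a ratio of 4.62 (3.32 to 6.42), with 0 UMIs in WT ones, which allows up to 37.9 CPM. Ckap4, an anchor of the rough endoplasmic reticulum, was at 117 and 29.9 CPM in KO, a ratio of 3.92 (2.94 to 5.21), and at 12.6 and 28.6 CPM in WT, with 1 UMI. The protease inhibitor Serpinb1a was at 146 and 32.6 CPM in KO, a ratio of 4.46 (3.42 to 5.81), and at 50.5 and 30.7 CPM in WT, a ratio of 1.64 (0.419 to 4.70). The WT intervals of all 3 include a ratio of 1 or rest on no UMI.

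**Figure D4:**
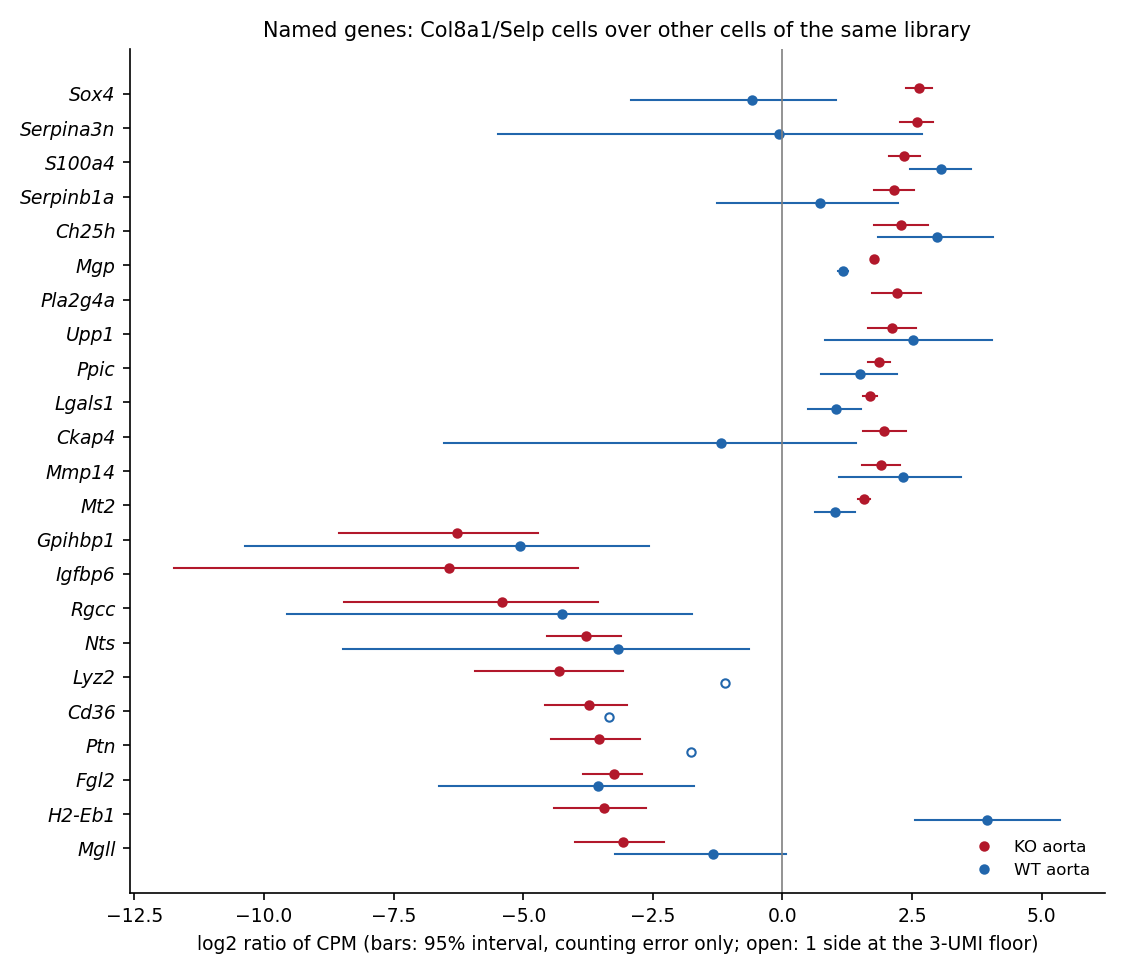
Log2 ratio of CPM (x axis) between Col8a1/Selp cells and other kept cells of the same library for named genes highest and lowest in KO (rows), in the KO and the WT aorta; bars are exact conditional 95% intervals and open points have 1 side at the floor of 3 UMIs. Sox4 stands at 2.64 in KO and -0.59 in WT, Mgp at 1.77 and 1.16, and H2-Eb1 at -3.44 and 3.94.

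Among the gene lists, matrix genes had the most members at least 1.5-fold higher in KO. Of 25 basement membrane and vessel matrix genes, 15 were measured in KO; 9 were at least 1.5-fold higher in Col8a1/Selp cells and 2 lower, with a median log2 ratio of 0.83. Of all measured KO genes, 9% passed 1.5-fold on the higher side and 9.75% on the lower side. Besides Mgp, Fbln5, which binds elastic fibres, was at 1100 and 373 CPM (ratio 2.95, 2.70 to 3.21), the calcium-binding matrix protein Sparc at 2391 and 995 CPM, and elastin (Eln) at 1644 and 863 CPM. The basement membrane genes Hspg2 (perlecan, 324 and 163 CPM) and Col4a1 (184 and 103 CPM) and the elastic fibre protein Emilin1 (235 and 110 CPM) were also above 1.5-fold. Lamb2, a laminin chain (64.7 and 151 CPM), and Sparcl1 (85.9 and 160 CPM) were lower. In WT, 5 of 12 measured members were higher and none lower, with a median of 0.41, beside 21.9% and 11.9% of all measured genes. Fibronectin (Fn1) was at 985 and 320 CPM in WT and 512 and 288 CPM in KO, whereas Eln was at 834 and 1021 CPM in WT. Among interstitial collagens, Col1a1 had 1 UMI in KO Col8a1/Selp cells and 43.4 CPM in other KO cells, and only Col5a2, at 341 and 106 CPM, was at least 1.5-fold higher among the 2 measured of 15 listed.

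Matrix proteases and their inhibitors split. Of 25 listed genes, 12 were measured in KO, 5 higher and 3 lower (median log2 ratio 0.38), beside 9% and 9.75% of all measured KO genes. Beside Mmp14, the gelatinase Mmp2 was at 223 and 67.8 CPM in KO (ratio of 3.29) and at 215 and 71.4 CPM in WT. Serpinh1, the collagen chaperone HSP47, was at 701 and 236 CPM in KO and 341 and 180 CPM in WT. On the lower side, the thrombin inhibitor Serpine2 was at 14.9 and 124 CPM in KO, the protease Adamts1 at 110 and 199 CPM, and Timp3, a matrix-bound inhibitor, at 563 and 946 CPM. Timp1 is a gene of the rule, so its higher level follows from the choice of cells and is not compared with that of Timp3.

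Genes of leukocyte adhesion and haemostasis were partly higher. Vcam1, the receptor of leukocyte integrin alpha-4, was at 3067 CPM in KO Col8a1/Selp cells and 1459 CPM in other KO cells (ratio 2.10, 2.00 to 2.21), and at 4257 and 863 CPM in WT, where 1 cell held 54.9% of the UMIs. Cd34 was at 711 and 407 CPM in KO and 745 and 346 CPM in WT, and Icam1 at 579 and 377 CPM in KO and 531 and 338 CPM in WT. In this list 3 of 7 measured KO members were at least 1.5-fold higher and none lower. Over all measured KO genes, 9% were higher and 9.75% lower by that size. Of the Weibel-Palade body and haemostasis genes, 2 of 9 measured in KO were higher, the protein C receptor Procr (809 and 420 CPM) and the granule membrane protein Cd63 (1099 and 693 CPM). Thrombomodulin (Thbd) was lower in KO, at 108 and 225 CPM. Von Willebrand factor (Vwf), the main cargo of Weibel-Palade bodies, was at 803 and 1012 CPM in KO and 796 and 1099 CPM in WT. Selp is a gene of the rule, so its own higher level follows from the choice of cells. The 68 other KO cells of cluster 4 had Vcam1 at 3555 CPM, Icam1 at 778 CPM and Procr at 927 CPM. All 3 values lay above those of KO Col8a1/Selp cells, so these genes were not particular to Col8a1/Selp cells.

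Arterial and flow-related genes did not move as 1 group. Gja4 (connexin 37) was at 509 and 176 CPM in KO (ratio 2.89, 2.55 to 3.28) and 328 and 135 CPM in WT, and the chemokine Cxcl12 at 319 and 135 CPM in KO and 265 and 95.5 CPM in WT. In the 68 other KO cells of cluster 4, Gja4 was at 421 CPM and Cxcl12 at 393 CPM. In the 36 KO Col8a1/Selp cells outside cluster 4 they were at 206 and 175 CPM. Cytl1 was lower in KO, at 7493 and 12970 CPM, and stood at 12886 and 14680 CPM in WT. Of 11 measured arterial genes in KO, 4 were higher and 1 lower (median 0.08), and of 9 in WT 5 were higher and none lower (median 0.64). Beside them stand 9% higher and 9.75% lower among all measured KO genes, and 21.9% and 11.9% in WT. Of 6 venous genes in KO 2 were higher and 1 lower (Ptgs1, cyclooxygenase 1, at 112 and 247 CPM). The flow-induced factor Klf4 was at 289 and 580 CPM in KO and 366 and 476 CPM in WT, and Klf2 at 1932 and 2089 CPM in KO and 3335 and 1565 CPM in WT. Of the flow list, 3 of 6 measured were lower in KO and none higher, and in WT 2 of 6 were higher and none lower.

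Protein-folding genes of the endoplasmic reticulum were higher as a list in KO: 6 of 12 measured were at least 1.5-fold higher and none lower, with a median of 0.57. For this list and those that follow, the shares over all measured KO genes were 9% higher and 9.75% lower. The disulphide isomerase Pdia6 was at 419 and 205 CPM in KO and 341 and 159 CPM in WT, and Manf, a secreted stress factor, at 307 and 167 CPM in KO and 88.4 and 131 CPM in WT. Among tubulin and microtubule genes 3 of 8 measured were higher in KO, including the microtubule destabiliser Stmn1 (187 and 62.8 CPM in KO, 101 and 45.0 CPM in WT) and Tuba1a (579 and 317 CPM in KO, 707 and 260 CPM in WT). Among Wnt genes, to whose antagonists Dkk2 belongs, 2 of 7 measured were higher in KO, the secreted inhibitors Sfrp1 (752 and 481 CPM) and Frzb (134 and 86.9 CPM), and 2 were lower. The Wnt target Axin2 had no UMI in any kept aortic cell. Of the list of endothelial-to-mesenchymal transition, 3 of 6 measured were higher in KO (S100a4, Acta2 and Vim, the last at 5419 and 2398 CPM), and Snai1, Snai2 and Twist1 were not among the measured.

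Many of the remaining lists had few measured members in KO. Their counts stand beside 9% of all measured KO genes higher and 9.75% lower by 1.5-fold, and 21.9% and 11.9% in WT. Counts near these shares do not set a list apart. Inflammatory activation had 3 of 10 measured higher and 2 lower, with the membrane-bound chemokine Cx3cl1 at 82.1 and 31.3 CPM in KO and 253 and 20.9 CPM in WT. BMP and TGF-beta genes had 0 of 16 higher and 2 lower, Notch genes 0 of 6 higher and 2 lower, interferon response genes 0 of 7 higher and 2 lower, and immediate early genes 0 of 13 higher and 2 lower (in WT 0 of 12 and 6). Glycolysis had 1 of 9 higher, caveolae 0 of 6 higher and 1 lower, MHC class I 0 of 12 higher and 1 lower (in WT 10 of 11 higher), and YAP and matricellular genes 0 of 4 higher and 1 lower. Proliferation had 1 of 5 higher, the cyclin Ccnd1 (94.6 and 36.2 CPM), and 1 lower, the cell cycle inhibitor Cdkn1a (147 and 384 CPM). Angiogenic and tip cell genes had 3 of 4 higher, among them Mcam (85.9 and 45.9 CPM), while the tip cell markers Apln and Esm1 had no UMI in KO Col8a1/Selp cells. Transcription factors had 3 of 14 higher, including Sox17 (213 and 128 CPM), and 3 lower, including Ebf1 (38.6 and 94.9 CPM) and Fli1 (48.5 and 108 CPM). Axon guidance had 1 of 4 higher and none lower. In the IGF list, all 5 measured genes were past 1.5-fold in KO, 2 higher and 3 lower (median log2 ratio -1.54). Igfbp3 (90.9 and 46.7 CPM) and Igfbp4 (464 and 269 CPM) were higher, and Igfbp5 (61.0 and 382 CPM), Igfbp6 and Igfbp7 (243 and 705 CPM) lower. Igfbp5 is a leading gene of cluster 3 and Igfbp6 of cluster 12, where no Col8a1/Selp cell lay. In KO cells that passed the exclusions, Igfbp5 was at 272, 38.1 and 21.4 CPM with none, 1 and 2 of the 6 genes. The part of these clusters in the lower values was not tested.

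Among the gene lists, capillary genes had the most members at least 1.5-fold lower in KO. Of 8 measured in KO, 6 were at least 1.5-fold lower and none higher (median log2 ratio -2.76), and in WT all 5 measured were lower (median -3.35). Over all measured genes, 9.75% were lower in KO and 11.9% in WT. Gpihbp1, which carries lipoprotein lipase to the capillary surface, had 3 UMIs in KO Col8a1/Selp cells, at 3.73 CPM against 289 CPM in other KO cells, a ratio of 0.0129 (0.00266 to 0.0379). In WT it had 1 UMI, at 12.6 and 423 CPM. The other cells include cluster 2, led by Rgcc, Car4 and Gpihbp1, with 103 KO cells and no Col8a1/Selp cell. In KO cells that passed the exclusions, Gpihbp1 was at 405, 55.1 and 37.0 CPM with none, 1 and 2 of the 6 genes. The part of cluster 2 in the lower capillary values was not tested. Rgcc, a cell cycle regulator of capillary endothelium, was at 2.49 and 106 CPM in KO and 12.6 and 239 CPM in WT. The fatty acid transporter Cd36 had 15 UMIs in KO Col8a1/Selp cells, at 18.7 CPM, with a ratio of 0.0751 to other KO cells (0.0418 to 0.124), and in WT it was at least 10.2-fold lower in Col8a1/Selp cells, at 0 UMIs, than in other cells. The fatty acid carrier Fabp4 was at 646 and 3248 CPM in KO and 101 and 4116 CPM in WT.

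The other lowest genes included members of the lymphatic, macrophage and MHC class II lists. The lymphatic neuropeptide Nts was at 22.4 and 310 CPM in KO and 12.6 and 113 CPM in WT, and the lymphatic regulator Prox1 had 1 UMI in KO and 0 in WT Col8a1/Selp cells; since the rule left out lymphatic cells, this follows from the choice of cells. The IGF-binding Igfbp6 was at 1.24 and 107 CPM in KO, the growth factor Ptn at 16.2 and 188 CPM and the lipase Mgll at 16.2 and 137 CPM. Fgl2, a membrane-bound prothrombinase, was at 34.8 and 330 CPM in KO and 25.3 and 299 CPM in WT, with ratios of 0.106 (0.0698 to 0.153) and 0.0846 (0.0102 to 0.309). Lyz2, the macrophage lysozyme, was at 6.22 and 123 CPM in KO, and its log2 ratio was -4.31, or 1.35 without cells holding at least 2 leukocyte UMIs. Against only the KO cells that passed the exclusions, 66 genes stood 2-fold or more above and 92 below.

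Markers of other cell types were at or near 0 for most lists. The lymphocyte list of 9 genes had no UMI in Col8a1/Selp cells of either library, and the macrophage list summed to 18.7 CPM in KO and 25.3 CPM in WT Col8a1/Selp cells, with 5 and 9 of its 10 genes at 0. The summed fibroblast list was higher in KO, at 2188 CPM in Col8a1/Selp cells and 1189 CPM in other cells, against 531 and 544 CPM in WT. Most of it was Dcn, the proteoglycan decorin, at 1477 and 667 CPM in KO, with the matrix proteoglycan Lum at 152 and 79.4 CPM; Col1a1 and Pdgfra, defining markers of fibroblasts, had 1 and 2 UMIs in the KO Col8a1/Selp cells. The summed smooth muscle list was at 2346 and 1823 CPM in KO and 518 and 1469 CPM in WT, and Myh11 and Cnn1, its defining markers, had 1 UMI each in KO. Acta2, smooth muscle actin, was at 1771 and 775 CPM in KO, but 1 cell held 41.5% of its UMIs, and without each group's highest cell the log2 ratio was 0.61 instead of 1.19. The other cells include the smooth muscle gene cluster 11. Its Acta2 was at 20646 CPM in 17 KO cells and 28241 CPM in 2 WT cells. The part of cluster 11 in the Acta2 and smooth muscle values was not tested. Red cell genes summed to 4.98 and 2121 CPM in KO and 50.5 and 16153 CPM in WT. Pericyte genes summed to 13.7 CPM in KO and 12.6 CPM in WT Col8a1/Selp cells, platelet genes to 24.9 and 0 CPM, adipocyte genes to 0 and 0 CPM, mesothelial genes to 192 and 354 CPM and glial and neuronal genes to 98.3 and 114 CPM; nearly all mesothelial signal was Krt18.

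The share of KO cells with a Dcn UMI differed between groups of unequal depth. Dcn was in all 12 KO cells of the fibroblast gene cluster 12, at 23553 CPM. It was found in 53.8% of KO Col8a1/Selp cells, in 67.6% of the other cells of cluster 4, in 31.3% of the other cells of cluster 0 and in 0.741% of those of cluster 9, whose medians were 5400.5, 3909.5, 2386.5 and 1906 UMIs. Lcn2, an iron-siderophore-binding protein induced in inflammation, was found in 22% of KO Col8a1/Selp cells and in 59.2% of the other cells of cluster 3 but in none of cluster 2. Lcn2 and Serpina3n tended to lie in the same Col8a1/Selp cells: of the 28 KO cells with Serpina3n, 19 had Lcn2 (67.9%), against 9.62% of the remaining 104. Median depths were 6498.5 and 5160 UMIs in cells with and without Serpina3n, and 5901 and 4843 UMIs in the 71 KO Col8a1/Selp cells with Dcn and in those without. The part of depth and of free RNA in these shares was not tested.

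Set KO against WT, 45 of 1141 measured genes (3.94%) were at least 2-fold higher in KO Col8a1/Selp cells and 48 (4.21%) at least 2-fold lower. Among other kept cells the figures were 12 of 2826 (0.425%) and 11 (0.389%), and at 1.5-fold 2.76% were higher and 1.88% lower. The Col8a1/Selp figures rest on 16 WT cells, and without the highest cell of each gene they were 114 higher and 17 lower. The genes higher in KO included matrix, contractile and secreted products, and the 6 lowest came almost wholly from 1 WT cell. Of the 48 lower genes, 29 were still at least 2-fold lower without that cell.

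Dcn was the most distant, at 1477 CPM in KO and 25.3 CPM in WT Col8a1/Selp cells, a ratio of 58.5 (16.1 to 483) that rests on 2 WT UMIs. Other KO cells also had more Dcn than other WT cells, at 667 and 164 CPM. Lcn2 was at 686 CPM in KO, where 1 cell held 47.2% of its UMIs, and at 0 UMIs in WT, at least 18.1-fold higher in KO; in other cells it was at 242 and 131 CPM. Ctla2a, an inhibitor of cysteine proteases that shares 10.3% of its 3' stretches with other genes, was at 1353 and 164 CPM, a ratio of 8.24 (4.80 to 15.5), and the water channel Aqp1 at 1261 and 215 CPM, a ratio of 5.87 (3.65 to 10.1). In other cells Aqp1 was at 1646 CPM in KO and 1483 CPM in WT, so the WT Col8a1/Selp cells stood apart from both groups of other cells. Ctla2a likewise was at 966 CPM in other KO and 673 CPM in other WT cells.

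Acta2 was at 1771 CPM in KO and 303 CPM in WT Col8a1/Selp cells, a ratio of 5.84 (3.91 to 9.15), yet the shares of cells with an Acta2 UMI were 40.2% and 43.8%. Sox4 was at 386 and 37.9 CPM, a ratio of 10.2 (3.45 to 49.6), and in other cells at 62.0 CPM in KO and 57.1 CPM in WT. Within cluster 4 alone, Sox4 was at 448 CPM in 96 KO cells and 64.8 CPM in 6 WT cells, and Lcn2 at 855 CPM and 0 UMIs. Of the matrix genes, 4 of 12 measured were at least 1.5-fold higher in KO and 1 lower, beside 12.3% and 14.4% of all measured genes: Hspg2 was at 324 and 152 CPM, Eln at 1644 and 834 CPM and Mgp at 22283 and 13354 CPM, while Fn1 was at 512 and 985 CPM.

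The 6 genes lowest in KO against WT came almost wholly from 1 WT cell. That cell had 13444 UMIs (17.0% of the WT total), 4 of the 6 rule genes, no macrophage or lymphocyte marker UMI and no doublet call, and lay in cluster 4. It held all 117 UMIs of Cd74, the MHC class II invariant chain, all 36 of H2-Aa, 39 of 40 of H2-Ab1, all 95 of the chemokine Ccl5, all 83 of Cxcl9, all 20 of the ubiquitin-like Ubd and all 30 of Ccl2. It also held all 12 UMIs of E-selectin (Sele) and 185 of 337 Vcam1 UMIs, with 13 Pecam1 UMIs. Without it, the KO over WT log2 ratio was 2.41 for Cd74 and 2.09 for H2-Ab1, against -2.61 and -2.97 with it, so both signs turned without this 1 cell; for H2-Aa it was 0.01 without the cell and -3.30 with it. In KO, MHC class II genes were lower in Col8a1/Selp cells than in other cells: Cd74 was at 243 and 722 CPM and H2-Eb1 at 14.9 and 162 CPM. Without cells holding at least 2 leukocyte UMIs, the log2 ratio was -0.12 for Cd74 in place of -1.57 and 0.16 for H2-Ab1 in place of -1.85. Other KO cells had far more Cd74 than other WT cells, at 722 and 13.2 CPM.

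**Figure D5:**
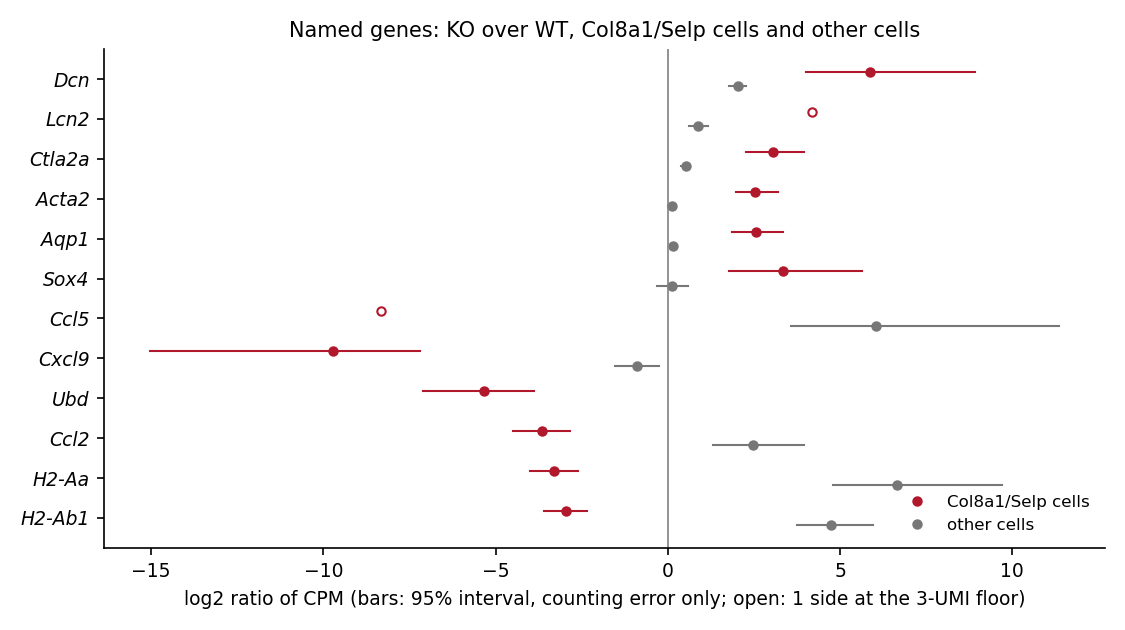
Log2 ratio of CPM (x axis) between the KO and the WT aorta for the 6 highest and 6 lowest named genes (rows), in Col8a1/Selp cells and in other kept cells; bars are exact conditional 95% intervals and open points have 1 side at the floor of 3 UMIs. Dcn stands at 5.87 in Col8a1/Selp cells and H2-Ab1 at -2.97, a low value that rests on 1 WT cell with 39 of 40 UMIs.

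The lungs held no cell of this kind. The same rule found 0 of 508 kept KO lung cells, which allows a share of up to 0.591%, and 0 of 775 WT lung cells, which allows up to 0.387%. Dkk2 and Tubb3 had no UMI in any kept lung cell. Selp was found in 2.17% of KO and 1.29% of WT lung cells, and Col8a1 in 1 cell of each lung. Lung cells were shallower than aortic Col8a1/Selp cells, with medians of 1732 UMIs in KO and 1662 in WT, and after thinning to 1500 UMIs the rule found 0 of 282 KO and 0 of 439 WT lung cells.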

How the data were processed

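Per the labels' protocols, pooled aortic and left lung cells of each genotype were sorted for eYFP and made into droplet libraries, 1 per tissue and genotype. The authors deposited UMI counts as whole numbers for each gene in each cell; the submitters' processing notes name Cell Ranger and build mm10, and no version is stated there. Total counts were 4483756 in the KO aorta and 1034161 in the WT aorta. Rows with the same symbol were summed. Cells with at least 500 UMIs and at most 15% mitochondrial UMIs were kept. UMIs were summed over cells of a group, given as CPM and compared as ratios with exact conditional Poisson intervals, Poisson intervals for levels and Clopper-Pearson intervals for shares (95%, counting error only). A count of 0 was bounded at 3 UMIs over the group. Genes were measured at a mean of at least 50 CPM worth at least 10 UMIs in the smaller group. Thinning drew 1500 UMIs per cell without replacement (seed 1). Scrublet doublet calls were left in. Leiden clusters (resolution 1, 15 neighbours, 30 components, 2000 variable genes) left out the rule's genes. The ratio step was checked on simulated counts.

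Named genes were the 14 highest and 10 lowest in KO Col8a1/Selp cells against other KO cells, and the 6 highest and 6 lowest in KO against WT, ranked by the interval bound nearest to a ratio of 1, plus up to 2 highest and 2 lowest members of each of 30 gene lists. Ribosomal, mitochondrial, haemoglobin, unnamed and rule genes were left out of that ranking. One gene that these rules name is not reported here. Other genes in the text were chosen after their values were seen. The rule, the members and the lists were chosen with earlier results of these data known. Gene positions come from GENCODE M21 and upstream sequences from RefSeq. Python 3.11.15, numpy 2.4.6, scipy 1.17.1, pandas 2.3.3, scanpy 1.11.5 and matplotlib 3.10.9 were used.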

Additional observations from a re-analysis of the deposited data

Results flagged for a closer look

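For 9 named genes the ratio of Col8a1/Selp cells over other kept cells was at least 2-fold in opposite directions in the KO and the WT library, and these differences between libraries were not tested. The KO minus WT difference was 3.15 for Ckap4, 3.84 for Dcn, 3.29 for Lcn2 and 2.42 for Acta2. These genes were higher in KO Col8a1/Selp cells and lower in WT ones. The WT Col8a1/Selp side rests on 1 Ckap4, 2 Dcn, 0 Lcn2 and 24 Acta2 UMIs. Among other WT cells, Acta2 was at 28241 CPM in the 2 cells of cluster 11. Dcn was at 45971 CPM in the 1 WT cell of cluster 12. Lcn2 was at 1390 CPM in the 39 WT cells of cluster 3. The part of these clusters in the WT ratios was not tested. The KO minus WT difference was -14.4 for Ccl5, -9.96 for H2-Aa, -8.82 for Cxcl9, -7.69 for H2-Ab1 and -7.38 for H2-Eb1. For these genes nearly all UMIs of WT Col8a1/Selp cells lay in 1 of 16 cells. Other named genes had opposite signs with less than a 2-fold difference in 1 library or in both, such as Sox4, whose log2 ratio was 2.64 in KO and -0.59 in WT.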

How the results depend on the processing

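The share of Col8a1/Selp cells moved with the rule: requiring at least 2 of the 6 genes gave 17.1% in KO and 11.6% in WT, at least 4 gave 4.91% and 2.23%, and thinning to 1500 UMIs first gave 3.99% and 1.18%. The KO over WT ratio of shares stayed inside its interval. Counts of genes past 2-fold moved with depth and filter. After thinning, 105 genes were higher in KO Col8a1/Selp cells than in other KO cells, 27 were higher and 5 lower in WT, and 10 were higher and 14 lower in KO against WT. A minimum of 20 CPM gave 131 higher and 273 lower in KO, and one of 100 CPM gave 36 and 44. Without the highest cell of each gene, 44 were higher and 105 lower in WT, and 114 higher and 17 lower in KO against WT. Of 2637 log2 ratios of single genes under alternatives, 2541 kept their sign and 96 changed it, 87 of them with a reported ratio under 2-fold. The other 9 were as follows. In KO against WT, Klk10 was 0.80 after thinning, and without each gene's highest cell Cd74 was 2.16 and H2-Ab1 1.76. In KO Col8a1/Selp cells against other KO cells, H2-Ab1 was 0.16 and Lyz2 1.35 without cells holding leukocyte UMIs. Settings chosen after seeing the data were leaving out the WT cell with most Cd74 (24 genes lower in WT; Cd74 2.41, H2-Aa 0.012 and H2-Ab1 2.09 in KO against WT) and keeping only cluster 4 (28 genes higher and S100a4 at 0.17 in KO against WT). Beyond the settings' own construction the cause was not tested. Depth limits WT most: 16 cells, where 0 UMIs allows up to 37.9 CPM. No paired analysis was possible because each group is 1 library.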
